A study of Mus musculus with 8 samples.

Results

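The RNA levels of 10 genes of the YAP and TEAD transcription module were compared between adipose-derived stem cells (ADSCs) grown in 2D and in 3D culture. The genes were chosen by name from the 24346 gene symbols listed in the data, and all 10 were measured above 0 in every library. They comprise 4 regulators (Yap1, Wwtr1, Tead1 and Tead2) and 6 target genes (Ctgf, Cyr61, Ankrd1, Amotl2, Lats2 and Axl), and the regulators and targets were read apart. The cells were primary cultures from the gonadal fat of wild-type (WT) BALB/c mice, male and 12 weeks old, with no added genetic change in either group. The 2D group held the conventionally cultured cells of mice 2, 3, 4 and 5. The 3D group held Matrigel-embedded organotypic cultures of mice 1, 4, 5 and 7, and the cells of mice 4 and 5 were therefore sequenced in both groups. rRNA-depleted RNA was sequenced, 1 library per culture. No sorting of the cells before sequencing was described, and the passage and medium of each sequenced culture were not given in the sources used here.

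YAP, encoded by Yap1, and its relative TAZ, encoded by Wwtr1, are coactivators that have no DNA-binding domain of their own and reach their target genes by binding the TEAD transcription factors. The Hippo kinase cascade phosphorylates YAP and TAZ and keeps them in the cytoplasm, whereas cell spreading on a stiff surface and actin tension favour their entry into the nucleus. The RNA level of a regulator therefore does not measure its activity, and the target genes are the usual readout of the module.

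Levels are given as FPKM, fragments per kilobase of transcript scaled to the mapped fragments of the library, after quantile normalization across the 8 libraries, and in library order of mice 2, 3, 4 and 5 for 2D and mice 1, 4, 5 and 7 for 3D. Differences are 3D minus 2D on the scale of log2(normalized FPKM + 1), on which changes of low genes are understated. They were tested with limma over all 18862 genes above 0 in any library, and a gene was called where the Benjamini-Hochberg adjusted p was below 0.05. Estimated depth ran from 16.4 to 17.4 M fragments (M, 10 to the power 6) in 2D and from 14.5 to 15.6 M in 3D. Over the longest coding transcript of each gene, the fewest fragments behind any of the 10 genes were about 76.5, for Tead2 in the 3D library of mouse 7. This sets a counting error of 11.4%, and the lowest value of each other gene rested on 205 fragments or more. Shorter transcripts would give fewer fragments and a larger error.

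The cultures differed widely in cell type markers. The summed level of 12 stromal markers was 2098 to 4530 in the 2D libraries and 4.78 to 8.71 in the 3D libraries, 11 of the 12 fell, and 10 were under 1 in every 3D library. The study stained 5 surface markers to assess the mesenchymal stem cell phenotype, with CD34 (Cd34) as the negative marker. Of their RNAs, Thy1 and Eng fell to at most 0.0554 and 0.189 in 3D. Ly6a (Sca-1) rose, from 24.0 to 165 in 2D to between 1429 and 3117 in the 3D libraries of mice 4, 5 and 7. Its 3D library of mouse 1, at 58.6, lay within the 2D range. The other 2 did not pass. These were Cd44, at 82.9 to 137.5 in 2D and 62.9 to 115 in 3D, and Cd34, at 0.122 to 5.62 and 0.159 to 2.103. The summed level of 14 epithelial markers was 32.0 to 694 in 2D and 2750 to 3218 in 3D, with 13 of the 14 higher. Of 8 genital duct markers, Pax2 and Pax8 rose and 3 defining ones, Lcn5, Adam7 and Spint4, were at 0 in every library. The sums were 0.334 to 0.943 in 2D and 38.9 to 51.1 in 3D. Pax8 alone was at 28.7 to 40.2 in 3D, and 5 of the 8 were under 1 in every 3D library. Mesothelial markers divided the 2D libraries, with sums of 857 and 2157 in mice 3 and 4 against 2.33 and 0.569 in mice 2 and 5, and 2.57 to 33.97 in 3D. Endothelial sums were 1.07 to 6.79 in 2D and 0.0480 to 0.202 in 3D, and macrophage sums 2.07 to 21.3 and 6.25 to 42.3. In bulk RNA, fewer cells of a type and less RNA per cell cannot be told apart, and the part of these markers in the results that follow was not tested.

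**Figure D1:**
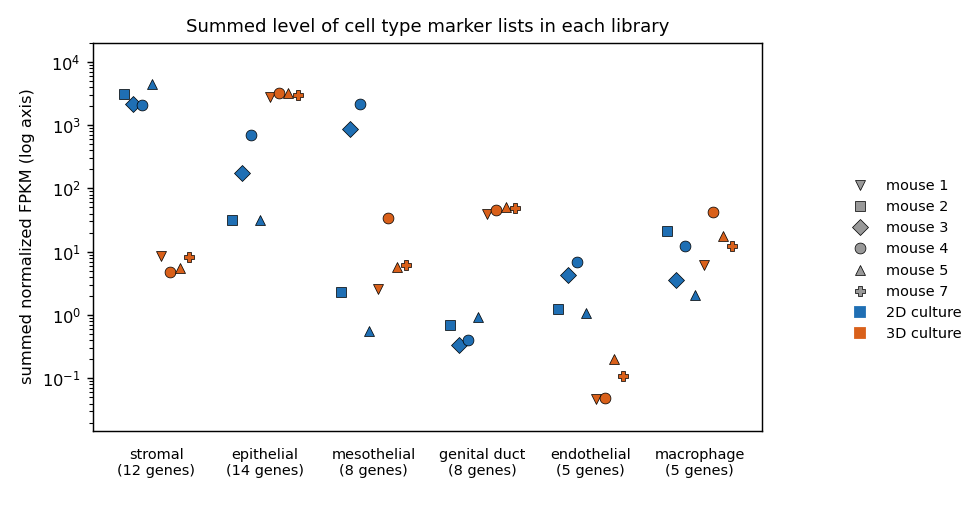
Summed normalized FPKM (log axis) of 6 cell type marker lists in each library, with color for the culture and symbol for the mouse. The stromal sums were 2098 to 4530 in 2D and 4.78 to 8.71 in 3D, the epithelial sums 2750 to 3218 in 3D, and the mesothelial sums 857 and 2157 in the 2D libraries of mice 3 and 4.

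Of the 10 genes, 8 were lower in 3D culture with an adjusted p below 0.05 and none was higher, with a median difference of -1.38. All 4 regulators fell, with a median of -0.95, and 4 of the 6 targets fell, with a median of -2.02, while Ankrd1 and Amotl2 did not pass. Over all genes tested, 41.5% were called, 20.3% lower and 21.2% higher, and the median difference was 0.00. Among the 6955 genes with a mean of at least 10 normalized FPKM, which include all 10, 54.3% were called and 27.3% were lower. The libraries of the 8 fallen genes did not overlap between cultures, and each of them had every 2D library above every 3D library. Of all genes, 42.5% had no overlap, 20.9% with 2D above and 21.6% with 3D above.

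The 2 coactivators fell moderately and remained well expressed in 3D. The Yap1 level (chr9:7931999-8004596, minus strand, GRCm38, as for the other genes) was 53.3, 52.8, 40.3 and 52.1 in 2D and 39.9, 35.3, 33.3 and 29.8 in 3D. The groups did not overlap, but the lowest 2D library, of mouse 4, lay just above the highest 3D library, of mouse 1. The mean level was 49.6 ± 6.26 in 2D and 34.6 ± 4.20 in 3D (SD, n = 4), a difference of -0.51 ± 0.12 (SE; limma adjusted p = 0.0126), or 1.42-fold lower with a 95% interval of 1.17 to 1.73. For Wwtr1 (chr3:57455649-57575910, minus strand) the levels were 39.4, 58.6, 63.1 and 35.2 in 2D and 20.3, 21.8, 29.6 and 24.1 in 3D. Every 3D library was below every 2D library, and the 2D libraries divided into mice 3 and 4 high and mice 2 and 5 low, as the mesothelial markers did. Wwtr1 fell by 0.98 ± 0.21 (SE, limma adjusted p = 0.00778), from 49.1 ± 13.8 to 24.0 ± 4.09 normalized FPKM (SD, n = 4), which is 1.97-fold.

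The DNA-binding partners fell to unequal extents. Tead1 (chr7:112679318-112906807, plus strand) was at 31.7, 31.6, 30.2 and 27.3 in 2D and at 9.68, 17.3, 25.2 and 13.2 in 3D. Its 2D libraries lay close together, while the 3D libraries were spread over 2.60-fold, with mouse 1 lowest and mouse 5 near the 2D range. The difference was -0.92 ± 0.25 (SE, limma adjusted p = 0.0208), 1.90-fold lower, and the call was lost without the 2D library of mouse 2 (adjusted p = 0.0512) or the 3D library of mouse 7 (adjusted p = 0.0555). Tead2 (chr7:45215753-45233644, plus strand), a TEAD prominent in embryonic tissues, was at 24.8, 20.6, 15.4 and 20.9 in 2D and at 3.61, 2.06, 1.63 and 1.41 in 3D. No library of either culture came near the other group. The Tead2 level went from 20.4 ± 3.86 to 2.18 ± 0.992 (SD, n = 4), a difference of -2.78 ± 0.24 (SE, limma adjusted p = 8e-05), or 6.88-fold lower with a 95% interval of 4.70 to 10.1.

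**Figure D2:**
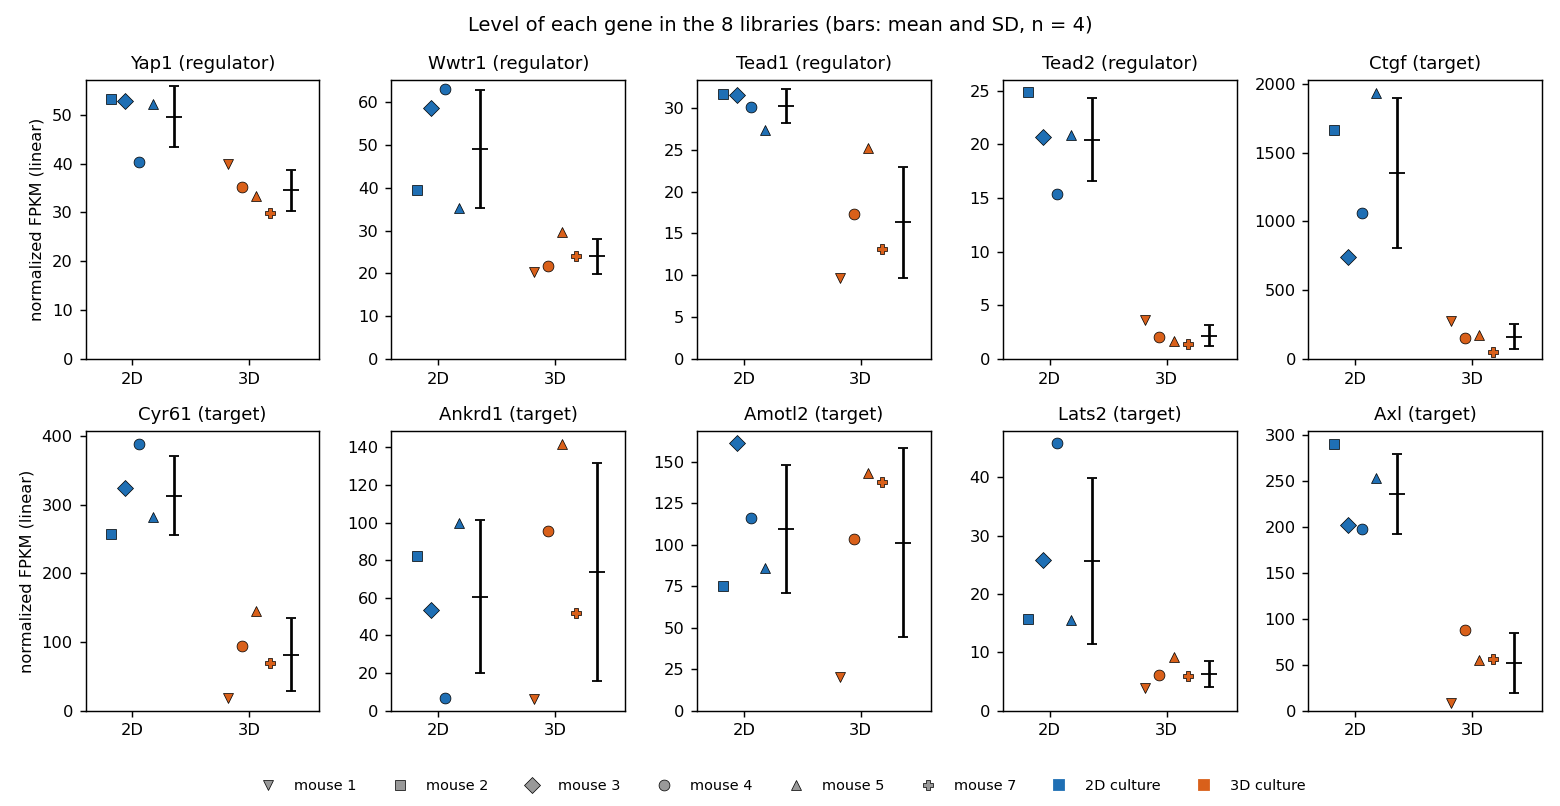
Normalized FPKM (linear axes from 0) of the 4 regulators and 6 targets in each library, with color for the culture, symbol for the mouse, and bars for the mean and SD of 4 libraries. Tead2 went from 15.4 or more in 2D to 3.61 or less in 3D, whereas Ankrd1 and Amotl2 overlapped between the cultures, with the 3D library of mouse 1 at 6.35 and 20.1.

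To compare related genes with each other, ratios were taken within each library from the deposited FPKM. The ratios as printed do not depend on scaling between libraries. The log2 differences, folds and permutation tests used the ratios with 1 FPKM added to both genes. These do depend on scaling, most for low genes such as Tead2 in 3D. Wwtr1 stood at 0.650 to 1.59 times Yap1 in 2D and at 0.553 to 0.906 times in 3D, with no difference past the threshold (log2 difference -0.37, exact two-sided permutation p = 0.343, adjusted p = 0.371 over 3 ratios). Tead2 stood at 0.768, 0.639, 0.478 and 0.747 times Tead1 in 2D and at 0.416, 0.143, 0.0791 and 0.110 times in 3D. All 4 libraries in 3D were below all 4 in 2D. With 1 FPKM added to both genes the ratio was 3.19-fold lower (log2 difference -1.67). The plain ratios printed here lie further apart, and with 0.1 FPKM added the log2 difference was -2.05. The exact two-sided permutation p of 0.0286 was the smallest that 4 libraries against 4 can give, and the adjusted p was 0.0857, so the difference did not pass after adjustment. The third ratio, of the secreted targets Ctgf and Cyr61, was 2.20 to 6.56 in 2D and 0.796 to 12.7 in 3D, where mouse 1 alone gave 12.7 and the other 3D libraries 1.57 or less (exact two-sided permutation p = 0.371, adjusted p = 0.371).

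**Figure D3:**
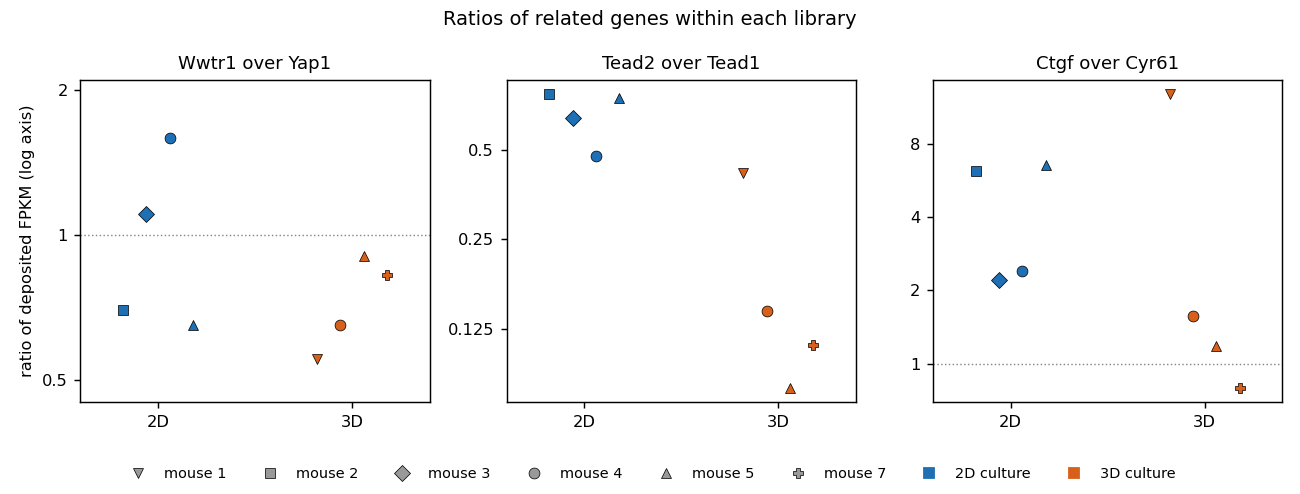
Ratio of deposited FPKM within each library (log axes) for Wwtr1 over Yap1, Tead2 over Tead1 and Ctgf over Cyr61, with color for the culture, symbol for the mouse and a dotted line at a ratio of 1. The Tead2 over Tead1 ratio was 0.478 or more in every 2D library and 0.416 or less in every 3D library, and the highest Ctgf over Cyr61 ratio, 12.7, was the 3D library of mouse 1.

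TEAD factors recognize the letters GGAATG, or CATTCC read on the other strand. The 250 bases before each start site in the RefSeq promoter table of build GRCm38.p6 were searched for both. A gene can have more than 1 such site, and the windows of Ankrd1 and Amotl2 lie inside the gene spans given below. The table held 8 of the 10 genes (not Ctgf and Tead1), and 6 of them had a match, 4 of 5 targets and 2 of 3 regulators (Yap1 and Wwtr1). Among all genes listed there, 14.4% had a match in at least 1 start site, and 12.6% of the 32851 windows did. A match of letters is a description and not a measured binding site. The windows of the 4 matching targets are given 5′ to 3′ on the strand of the gene, with the matches in capitals, since they hold targets that fell (Cyr61 and Axl) as well as targets that did not pass (Ankrd1 and Amotl2). They lie at chr3:145649986-145650235 (Cyr61, minus strand), chr7:25788734-25788983 (Axl, minus strand), chr19:36119845-36120094 (Ankrd1, minus strand) and chr9:102717554-102717803 (Amotl2, plus strand), where the matches begin at -103, at -233, at -210 and -123, and at -65 relative to the start site.
Cyr61: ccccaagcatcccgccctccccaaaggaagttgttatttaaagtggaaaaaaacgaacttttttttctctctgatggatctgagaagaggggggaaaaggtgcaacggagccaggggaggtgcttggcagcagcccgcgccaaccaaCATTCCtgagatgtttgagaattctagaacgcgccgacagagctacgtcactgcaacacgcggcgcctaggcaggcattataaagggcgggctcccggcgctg
Axl: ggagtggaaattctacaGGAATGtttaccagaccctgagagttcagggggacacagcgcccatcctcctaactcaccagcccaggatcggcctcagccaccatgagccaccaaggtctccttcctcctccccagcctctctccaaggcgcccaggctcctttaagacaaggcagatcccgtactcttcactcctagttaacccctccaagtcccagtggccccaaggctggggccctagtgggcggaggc
Ankrd1: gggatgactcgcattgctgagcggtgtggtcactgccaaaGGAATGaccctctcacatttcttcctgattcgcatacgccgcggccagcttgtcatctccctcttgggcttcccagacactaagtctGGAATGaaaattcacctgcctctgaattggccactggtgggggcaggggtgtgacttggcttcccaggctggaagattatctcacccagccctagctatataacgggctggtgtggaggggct
Amotl2: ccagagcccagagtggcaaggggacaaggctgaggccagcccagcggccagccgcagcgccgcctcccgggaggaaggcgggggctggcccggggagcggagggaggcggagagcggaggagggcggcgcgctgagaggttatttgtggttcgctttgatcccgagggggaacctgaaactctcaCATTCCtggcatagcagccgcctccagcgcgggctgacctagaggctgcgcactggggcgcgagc

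The secreted matricellular targets had the highest levels and fell strongly. Ctgf (chr10:24595442-24598683, plus strand), which encodes a matrix-associated protein linked to fibrosis, was at 1668, 745, 1063 and 1935 in 2D and at 274, 152, 171 and 54.2 in 3D. The lowest 2D library was well above the highest 3D library, and within 3D the highest was mouse 1. The mean went from 1353 ± 545 to 163 ± 90.1 (SD, n = 4), a difference of -3.16 ± 0.52 (SE, limma adjusted p = 0.00211), or 8.94-fold lower with a 95% interval of 3.88 to 20.6. Cyr61 (chr3:145646976-145649981, minus strand), a related secreted protein that binds integrins, was at 258, 325, 389 and 282 in 2D and at 18.03, 94.6, 145 and 69.5 in 3D. The cultures did not overlap, and mouse 1 was by far the lowest 3D library, the reverse of its place for Ctgf. Cyr61 differed by -2.24 ± 0.57 (SE, limma adjusted p = 0.0159), 4.72-fold lower in 3D, and by 3.12-fold without the 3D library of mouse 1.

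Lats2 and Axl, a kinase and a receptor, fell as well. Lats2 (chr14:57689662-57758388, minus strand) encodes a kinase that phosphorylates YAP and TAZ, so that it is at once a target and an inhibitor of the module. Its levels were 15.7, 25.7, 45.8 and 15.5 in 2D and 3.84, 6.16, 9.13 and 5.87 in 3D, without overlap and with mice 3 and 4 the highest in 2D. The difference was -1.79 ± 0.37 (SE, limma adjusted p = 0.00657), from a mean of 25.7 ± 14.2 to 6.25 ± 2.18 (SD, n = 4), which is 3.46-fold lower. Axl (chr7:25757273-25788705, minus strand), a receptor tyrosine kinase for the ligand Gas6, was at 290, 202, 198 and 252 in 2D and at 8.44, 87.9, 55.4 and 55.9 in 3D. Again the groups were apart, and mouse 1 was far below the other 3D libraries. Axl differed by -2.53 ± 0.65 (SE, limma adjusted p = 0.0158), 5.76-fold lower, and by 3.57-fold without the 3D library of mouse 1.

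Ankrd1 and Amotl2 were not distinguishable between cultures, and their libraries varied widely within each. Ankrd1 (chr19:36111961-36120099, minus strand), an ankyrin repeat protein of muscle sarcomeres and the nucleus, was at 82.0, 53.3, 6.56 and 99.8 in 2D and at 6.35, 95.4, 142 and 51.7 in 3D. The range was 15.2-fold within 2D and 22.4-fold within 3D, with the 2D library of mouse 4 and the 3D library of mouse 1 far below the others. The difference was 0.16 ± 1.13 (SE, limma adjusted p = 0.919) with a 95% interval of -2.47 to 2.79, which spans large changes in either direction, and leaving out the 2D library of mouse 4 gave -0.67, whereas leaving out the 3D library of mouse 1 gave 1.08. Amotl2 (chr9:102716672-102733418, plus strand), an angiomotin family protein that binds YAP at cell junctions, was at 74.9, 161, 116 and 85.9 in 2D and at 20.1, 104, 143 and 138 in 3D. Apart from mouse 1, the 3D libraries lay within the 2D range. The difference was -0.38 ± 0.62 (SE, limma adjusted p = 0.650, 95% interval -1.82 to 1.07), and 0.28 without the 3D library of mouse 1.

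**Figure D4:**
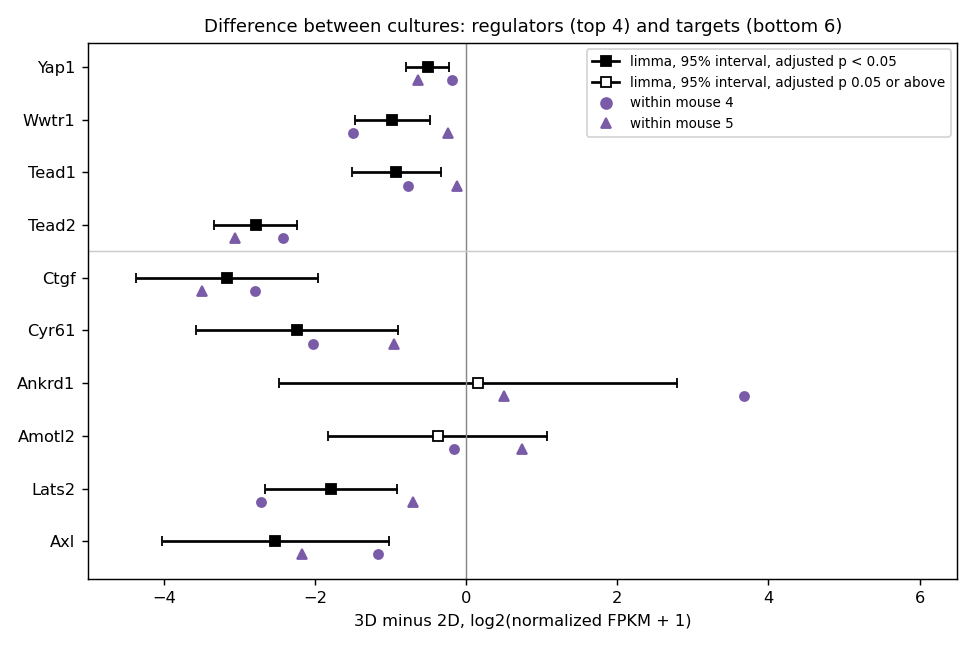
Difference of 3D minus 2D on the log2(normalized FPKM + 1) scale for each gene (squares, with 95% limma intervals, filled where the adjusted p was below 0.05), and the difference within mouse 4 (circles) and mouse 5 (triangles). The 8 filled squares are all below 0, from -0.51 for Yap1 to -3.16 for Ctgf, and within mouse 4 Ankrd1 was 3.67 higher in 3D.

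Mice 4 and 5 gave both cultures, and in each mouse all 8 fallen genes were lower in 3D. That direction was fixed beforehand, since each of these genes had every 2D library above every 3D library. It is therefore no separate support, and only the sizes within each mouse are described here. Within mouse 4 the differences of these genes ran from -0.18 (Yap1) to -2.80 (Ctgf), and within mouse 5 from -0.11 (Tead1) to -3.49 (Ctgf). Wwtr1 and Lats2 differed by -1.49 and -2.71 in mouse 4 but by -0.24 and -0.71 in mouse 5, while Axl differed by -1.16 and -2.17. Ankrd1 was higher in 3D in both mice, by 3.67 and 0.50, and Amotl2 differed by -0.16 in mouse 4 and by 0.73 in mouse 5. With the mouse as a block in the limma fit, 1 residual degree of freedom was left, and 0 of the 4 regulators, 0 of the 6 targets and 0 of the 18862 genes passed (5216 genes had an unadjusted p below 0.05). In that fit Tead2, Ctgf and Axl had an unadjusted p below 0.05, and the adjusted p of the 10 genes ran from 0.111 to 0.6001.

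The 3D library of mouse 1 was outside the range of the other 3D libraries for all 10 genes, against 55.5% of all genes. It was the lowest for 7, against 28.8% of all genes, and the highest for Yap1, Tead2 and Ctgf, against 26.6%. Ankrd1 was 15.2-fold below the mean of the other 3D libraries there, Axl 7.87-fold, Amotl2 6.40-fold and Cyr61 5.71-fold. Without this library 8 of the 10 genes were still called lower. Its title and group label gave 3D culture, but its short description, unlike those of the other libraries, did not name the culture. The 2D libraries divided as well: mice 2 and 5 were both above mice 3 and 4 for Tead2, Ctgf, Ankrd1 and Axl, and both below them for Wwtr1, Cyr61, Amotl2 and Lats2, while 51.9% of all genes showed such a division, 28.1% with mice 2 and 5 above and 23.8% with them below. Without the 2D libraries of mice 3 and 4, in which the mesothelial markers were high, all 4 fallen targets were still lower, but Cyr61 (adjusted p = 0.0905) and Axl (0.0555) as well as the regulator Tead1 (0.102) no longer passed in limma.

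In both cultures Ctgf had the highest mean level, per length of transcript, of the 10 genes. In 2D it was followed by Cyr61 and Axl, which overlapped each other, then by Amotl2, Ankrd1, Yap1 and Wwtr1, each overlapping the next, and then by Tead1, Lats2 and Tead2. In 3D the order was Ctgf, Amotl2, Cyr61, Ankrd1, Axl and Yap1, again with each gene overlapping the next, and Wwtr1, Tead1, Lats2 and Tead2 followed. Tead2 thus had the lowest mean in both, and only in 3D did all of its libraries lie below all those of the next gene, Lats2. The closest pair of genes by pattern over the 8 libraries was Wwtr1 and Tead1, with a root mean square difference of 0.324 on the centred log2 scale, and the closest pairs that held a target were Wwtr1 and Lats2 (0.490), Cyr61 and Axl (0.5003), and Tead2 and Ctgf (0.581). Among all genes tested, those nearest to Yap1 were Wasf2 (0.0877), Mapk14 (0.0932) and Pias3 (0.0937), and those nearest to Ctgf were Rcn1 (0.410), Fam111a (0.411) and Fkbp11 (0.449). These distances describe 8 libraries that share the culture difference.

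Of 29 other genes listed for the Hippo pathway, 28 were tested (Vgll1 was at 0 in every library), 5 rose (Wwc1, Taok2, Nf2, Sav1 and Limd1), 6 fell (Vgll3, Rassf1, Wwc2, Map4k4, Frmd6 and Wtip) and 17 did not pass, with a median difference of -0.03 beside 0.00 over all genes. The 11 called of 28 make 39.3%, close to the 41.5% called over all genes. Sav1 passed narrowly (limma adjusted p = 0.0459), and its libraries overlapped, with 2D up to 25.2 and 3D from 24.6. Its limma adjusted p was up to 0.110 when 1 library was left out. The number that rose was 3 without the 2D library of mouse 2 or 4 or the 3D library of mouse 5 or 7. By role, 1 of 5 partners and competitors for TEAD fell and none rose, 2 of 10 genes of the kinase cascade rose and 1 fell, and 3 of 13 upstream and junctional regulators rose and 4 fell.

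Vgll3 showed the largest fall of these genes, and the remaining TEAD genes did not pass. Vgll3, a vestigial-like cofactor of TEAD, had 62.9 ± 10.6 normalized FPKM in 2D and 0.717 ± 0.511 in 3D (SD, n = 4), a difference of -5.26 ± 0.24 (SE, limma adjusted p = 3.2e-06). Its 2D libraries were all at 54.3 or more and its 3D libraries at 1.33 or less. Tead3 was at 25.3 ± 3.03 in 2D and 22.3 ± 7.04 in 3D, and Tead4 at 2.82 ± 0.788 and 3.01 ± 0.522 (SD, n = 4), with limma adjusted p-values of 0.430 and 0.741. Tead3 and Tead4 were named for their kinship with the regulators, outside the naming rule and after their values were seen.

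Wwc1 and Wwc2, related scaffold proteins that activate the LATS kinases, moved in opposite directions. The level of Wwc1, also known as KIBRA, was 4.59 ± 1.82 in 2D and 178 ± 48.3 in 3D (SD, n = 4), a difference of 5.03 ± 0.30 (SE, limma adjusted p = 1.5e-05), with at most 6.22 in any 2D and at least 129 in any 3D library. Wwc2 went from 55.5 ± 7.36 to 16.9 ± 1.86 and differed by -1.66 ± 0.12 (limma adjusted p = 3.1e-05). Rassf1, a scaffold that binds the MST kinases, went from 45.8 ± 7.03 to 9.76 ± 1.45 and differed by -2.12 ± 0.14, and Map4k4, a kinase that phosphorylates LATS, from 99.3 ± 25.8 to 34.5 ± 8.06, a difference of -1.49 ± 0.24. The remaining rises were under 1 on the log2 scale. Taok2, a kinase upstream of MST, rose by 0.63 ± 0.09, Nf2, which encodes the junctional tumor suppressor merlin, by 0.52 ± 0.08, and Limd1, a LIM protein that binds LATS, by 0.31 ± 0.09 with an adjusted p of up to 0.0697 when 1 library was left out.

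A list of 16 further target genes known to respond to YAP and TAZ was tested whole, and 7 fell (Ccdc80, Dock5, Foxf2, Asap1, Tgfb2, Crim1 and Arhgef17), 1 rose (Nuak2) and 8 did not pass, beside 20.3% of all genes lower and 21.2% higher, and the median difference was -0.99. Of them 8 did not overlap between cultures, each with 2D above, beside 20.9% of all genes with 2D above. Ccdc80, which encodes a secreted matrix-associated protein, was at 189.9 ± 23.5 in 2D (SD, n = 4) and between 0 and 0.0485 in 3D. Its mean deposited FPKM in 2D was 227.5, and against the deposited FPKM that 3 fragments give in a 3D library, 0.0567, it was at least 4012-fold lower. Foxf2, a forkhead factor of mesenchyme, was at 3.62 ± 1.53 in 2D and at 0 in all 4 libraries in 3D, and from its mean deposited FPKM in 2D, 3.19, it was at least 36.4-fold lower on the same basis. Dock5, an exchange factor for Rac, went from 25.9 ± 13.3 to 2.93 ± 1.47 and differed by -2.75 ± 0.38, and Asap1, which acts on Arf GTPases at focal adhesions, from 32.2 ± 4.56 to 7.06 ± 1.67, a difference of -2.06 ± 0.17 (limma adjusted p = 0.000966 and 7.1e-05). Nuak2, a stress-activated kinase named here although its libraries overlap, had 15.1 ± 6.77 in 2D and 36.5 ± 11.9 in 3D, a difference of 1.26 ± 0.38 (limma adjusted p = 0.0314). That call was lost without the 2D library of mouse 4 or the 3D library of mouse 4, 5 or 7. Ccdc80 and Foxf2 moved together with the stromal markers, whose part was not tested, and with the mouse as a block 0 genes of either list passed.

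**Figure D5:**
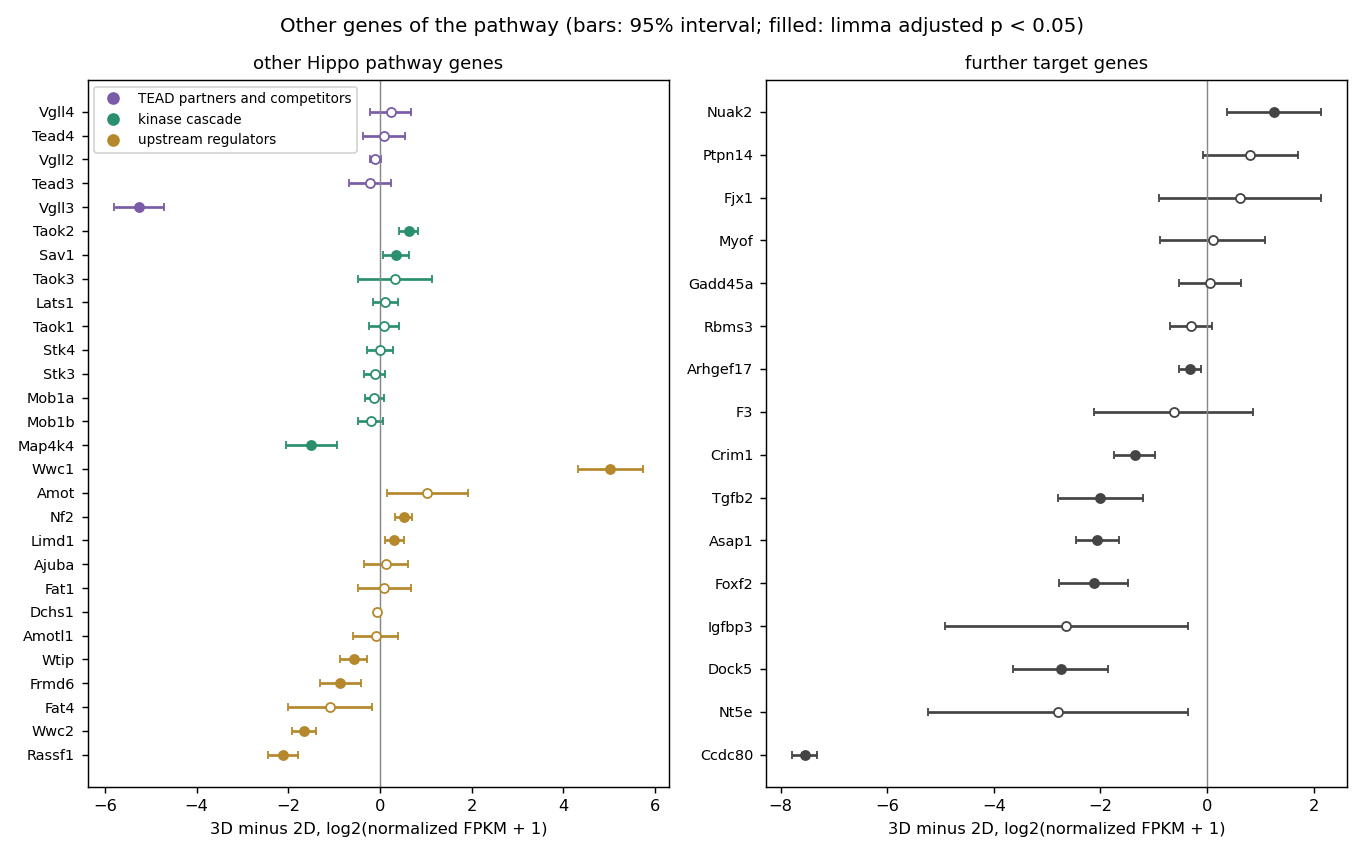
Difference of 3D minus 2D on the log2(normalized FPKM + 1) scale with 95% limma intervals for 28 other Hippo pathway genes, colored by role, and 16 further target genes, filled where the adjusted p was below 0.05. Wwc1 at 5.03 and Vgll3 at -5.26 are the extremes of the pathway genes, and Ccdc80 at -7.54 is the lowest of the further targets.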

How the data were processed

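RNA from 8 primary cultures, 4 in 2D and 4 in 3D, was sequenced from rRNA-depleted, strand-specific libraries. The authors trimmed the reads, mapped them with TopHat, estimated gene levels with Cufflinks and deposited them as FPKM, per the labels on mm10. The annotation was not given in the sources used here. FPKM values are not counts, so no count test was run. Mapped depth was estimated from the spacing of low FPKM values of 875 genes with 1 transcript of at least 3000 bases, searched between 11 and 22 M, where 69.1 to 80.3% of the low values fell within 0.15 of a whole fragment. It is an estimate and covers counting error only.

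Values of genes above 0 in any library (5484 of 24346 were at 0 in all) were quantile normalized, as the study did, and tested on log2(FPKM + 1) with limma 3.58.1 in R 4.3.3 (moderated test with an intensity trend, no covariate, Benjamini-Hochberg adjustment over all genes). The fit was tested on simulated data. Ratios were tested on the log2 scale, with 1 FPKM added to both genes, by exact permutation of the 4 against 4 libraries (70 arrangements). The members, the pathway and marker lists and the naming rule were chosen with earlier results of these data known. All 10 members were named. Of the other pathway genes and of the further targets, the named ones were the 4 largest rises and 4 largest falls among called genes without overlap between cultures. For Yap1 and Ctgf, the 3 nearest genes by root mean square difference were named.

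Mice 4 and 5 had a library in each culture by their titles. This pairs 2 libraries of each group by animal. In the 12583 genes averaging at least 1 normalized FPKM, deviations from the group means correlated at -0.05 in mouse 4 and -0.11 in mouse 5. Each library is otherwise 1 animal. Positions are from GENCODE M21 and promoters from RefSeq (GRCm38.p6), both of build mm10, and 95.8% of gene symbols matched GENCODE, with Ctgf and Cyr61 entered there as Ccn2 and Ccn1. Alternatives were the values as deposited, a filter at a mean of 1 FPKM, a pseudocount of 0.1, no trend, the mouse as a block, and each library left out. After the data were seen, a fit without the 2D libraries of mice 3 and 4 and an exchanged pairing were added.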

Additional observations from a re-analysis of the deposited data

Results flagged for a closer look

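In 3 of 49 groups of 4 libraries, the gap of a library to its nearest neighbour exceeded Dixon's 95% critical share of the range. Chance gives about 1 in 20. Gaps and ranges were taken on the log2(normalized FPKM + 1) scale, whereas the levels below are printed as normalized FPKM. Shares taken from the printed levels differ, and for Amotl2 the share is smaller, so that a flag can depend on the scale. The 2D library of mouse 4 was low for Yap1, at 40.3 normalized FPKM against 52.1 in the next (gap 0.920 of the range). The 3D library of mouse 1 was low for Amotl2, at 20.1 against 104 in the next (gap 0.833). The 2D library of mouse 5 was low for Foxf2, at 1.35 against 4.23 in the next (gap 0.914).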

How the results depend on the processing

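Across 16 alternative fits and 10 genes, 130 of 160 values kept direction and call, 21 kept direction but lost the call, none gained it and 9 reversed. With the mouse as a replicate block, 0 regulators, 0 targets, 0 genes of the 2 further lists and 0 of all genes passed in either direction (4000 higher and 3823 lower without the block), and this design leaves 1 residual degree of freedom. All 8 calls among the 10 genes were lost. With mice 4 and 5 exchanged in 3D, 0 of all genes, regulators, targets and both further lists passed as well. With the mouse as a random effect, 3948 genes were higher and 3779 lower. Without the 2D libraries of mice 3 and 4, 2 targets and 3 other Hippo genes that rose were called, and Ankrd1 was at -0.91 and Amotl2 at 0.0092 (log2 difference). As deposited, Ankrd1 was at -0.19 and 0 further targets rose. Leaving out 1 library, the difference ran from -0.67 to 1.08 for Ankrd1 and from -0.66 to 0.28 for Amotl2, the other Hippo genes that rose numbered 3 to 7, and the further targets that rose 0 to 2. Amotl2 was at 0.29 under the block and 0.29 with the exchanged pairing. The cause was not tested. The values as deposited shifted genes with a mean of at least 100 normalized FPKM by a median of -0.53 against quantile normalization, so on that scale Ctgf was at -3.62. Depth limits only genes near 0, such as Foxf2 in 3D.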
